A study of Rattus norvegicus with 6 samples.

Results

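The genes described here are 10 members of the Eph and ephrin family, taken by their symbol from the 18923 genes of the deposited tables. They are the receptor genes Epha2, Epha3, Epha4, Epha7, Ephb2, Ephb3 and Ephb4 and the ligand genes Efna1, Efnb1 and Efnb2. All 10 passed the filter on low counts, as did 13438 of the 18923 genes. RNA-Seq was performed on primary chondrocytes of WT Sprague-Dawley rats, isolated from cartilage of 24-h-old females and used at passage 1 or 2. The CON group held 3 samples kept for 24 h in high-glucose DMEM with 10% serum, and the RA group held 3 samples that received 1 µM all-trans retinoic acid (RA) in the same medium for 24 h. No vehicle is named for CON, and the labels do not say whether the 3 samples of a group came from different animals, so the p-values measure the spread between these samples.

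Eph receptors are receptor tyrosine kinases that are bound by ephrins on the surface of a neighbouring cell. Ephrin-A proteins are held in the membrane by a lipid anchor and mainly bind EphA receptors, whereas ephrin-B proteins cross the membrane and mainly bind EphB receptors. Signals run into the receptor-bearing cell (forward) and into the ephrin-bearing cell (reverse), and change adhesion, repulsion and the actin cytoskeleton. In the skeleton the pair of ephrin-B2 and EphB4 is best known from the contact of osteoclasts with osteoblasts, and in vessels the same pair marks arterial and venous endothelium. RA is the vitamin A derivative that activates the nuclear receptors RAR.

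The total count per sample was between 29370025 and 38007486 reads, the highest in CON sample 3. CON sample 1 stood apart from the other CON samples. The correlation of its log2 CPM over all tested genes was 0.985 with CON sample 2 and 0.983 with CON sample 3, against 0.992 between the latter, and fold changes that moved by more than 1.5 times without it are given both ways. Cyp26b1, which encodes an RA-degrading enzyme and is a known RA target, rose from 1.51 ± 0.187 to 9.52 ± 0.916 FPKM (SD, n = 3 each). Of 8 chondrocyte marker genes, all were expressed, and 7 were differentially expressed genes (DEGs) that fell in RA. Their summed level was between 7716 and 9564 FPKM in CON and between 4879 and 5194 FPKM in RA. Genes counted as DEGs had an adjusted p below 0.05 in edgeR's quasi-likelihood test, together with a log2 fold change above 0.58 or below -0.58. By this rule 667 of the 13438 tested genes, or 4.96%, were DEGs.

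Epha2 was the only one of the 10 members to be a DEG. It rose 1.84-fold in RA (95% interval 1.61 to 2.12), a log2 fold change of 0.88. Of all tested genes 2.67% were DEGs that rose and 2.29% were DEGs that fell, and by fold change Epha2 was number 222 among these 359 genes. The other 9 members were not DEGs, and their log2 fold changes lay between -0.42 and 0.33. The median over the 10 members was 0.12, beside -0.0057 over all tested genes.

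Epha2 (ENSRNOG00000009222) encodes EphA2, a receptor of ephrin-A ligands, ephrin-A1 above all. Its level was 13.3, 15.2 and 16.3 FPKM in CON samples 1, 2 and 3. In RA samples 1, 2 and 3 it was 27.0, 27.5 and 28.8 FPKM. Every RA sample was thus above every CON sample, and the lowest RA value was well clear of the highest CON value. The mean rose from 14.9 ± 1.52 to 27.8 ± 0.945 FPKM (SD, n = 3 each), with a standard error of the log2 fold change of 0.0869 and an adjusted p of 4.91e-04 from edgeR's test with Benjamini-Hochberg adjustment. The 95% interval of its log2 fold change, 0.68 to 1.08, lay above the threshold of 0.58. The counts behind these values ran from 1599 to 3494 reads per sample. Leaving out each sample in turn kept the log2 fold change between 0.80 and 0.96, lowest without CON sample 1, and Epha2 was a DEG in each of these 6 fits.

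**Figure D1:**
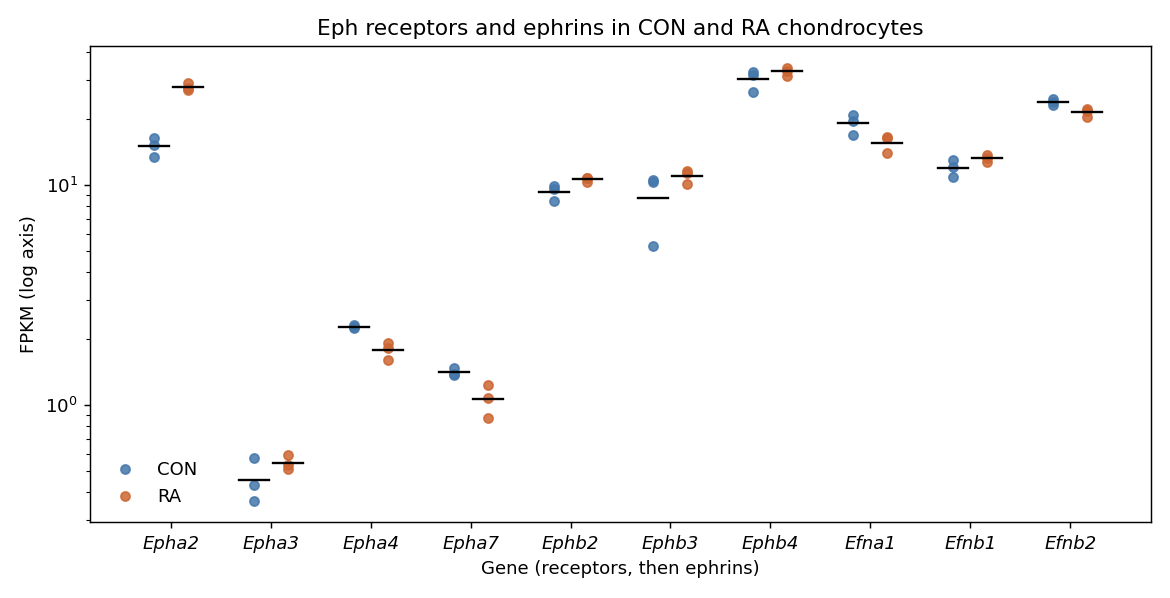
FPKM on a log axis of the 10 members in the 3 CON samples (blue) and the 3 RA samples (orange), 1 point per sample, with a black bar at the group mean. The Epha2 points of the groups lie far apart, 13.3 to 16.3 FPKM in CON against 27.0 to 28.8 FPKM in RA, while for Ephb3 a single CON sample, at 5.25 FPKM, lies below all the others.

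Because Epha2 was the only DEG among the members, the sequence upstream of its start is shown beside that of Efna1, the gene of its main ligand, which was not a DEG. Both are the 250 bases before the RefSeq transcript start in the rat assembly GRCr8, which is newer than the assembly of the deposited counts, and both are written 5′ to 3′ on the strand of the gene. Epha2 lies on the plus strand at chr5:158888379-158888628 and Efna1 on the minus strand at chr2:176986822-176987071. Capitals mark matches, on either strand, to the GC box GGGCGG and to the cyclic AMP response element TGACGTCA, the latter searched after the Epha2 sequence had been seen.

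Epha2: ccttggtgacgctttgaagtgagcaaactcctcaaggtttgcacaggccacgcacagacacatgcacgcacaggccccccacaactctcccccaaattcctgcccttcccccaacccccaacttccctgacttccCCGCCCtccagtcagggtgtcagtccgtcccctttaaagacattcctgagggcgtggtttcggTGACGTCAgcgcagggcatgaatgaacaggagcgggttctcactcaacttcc

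Efna1: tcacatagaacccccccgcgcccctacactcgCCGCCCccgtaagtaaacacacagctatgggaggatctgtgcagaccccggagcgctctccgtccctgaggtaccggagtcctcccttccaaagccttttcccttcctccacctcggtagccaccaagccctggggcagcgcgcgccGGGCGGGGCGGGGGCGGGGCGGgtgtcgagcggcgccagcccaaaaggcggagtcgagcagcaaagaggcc

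The Epha2 window held 1 GC box, 115 to 110 bases before the start, and the palindrome TGACGTCA, 52 to 45 bases before it. The Efna1 window held 5 GC boxes, 4 of them in a tight and partly overlapping run. Of 33469 rat promoter windows of the same length, 30.5% held a GC box and 1.59% held TGACGTCA. Windows were given for 9 of the 10 members, all but Epha4, and a GC box was in 5 (Epha2, Epha7, Ephb3, Ephb4 and Efna1) and TGACGTCA in Epha2 alone. The AP-1 site TGANTCA (in 6.34% of all windows) and the TATA box TATAAA (in 12.9%), also searched on both strands, were in none of the 9. The GC content was 58.4% in the Epha2 window and 68.4% in the Efna1 window, against a median of 51.2% over all windows. Retinoid receptors bind pairs of hexamers, and the hexamers searched, on both strands, were AGGTCA (in 14.1% of all windows), AGTTCA (in 12.2%), GGGTCA (in 11.9%) and GGTTCA (in 9.77%). Direct repeats of any of them with 1, 2 or 5 bases between were searched as well. No such hexamer was in the Epha2 or Efna1 window. Among the members with a window AGTTCA was in Ephb3, GGTTCA was in Ephb2, and no member had a direct repeat. A direct repeat with 5 bases between was in 0.326% of all windows, 1 with 2 bases in 0.137% and 1 with 1 base in 0.194%. For comparison, the window of the RA target Cyp26a1 held such a repeat with 5 bases between, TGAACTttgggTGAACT, 92 to 76 bases before its start, with the hexamers in capitals as read on the gene's own strand. The windows given for the RA targets Cyp26b1 and Rarb held no such repeat, and other transcript starts of these genes were not searched. Rarb had a single GGGTCA, and Cyp26b1 had no hexamer. These are matches of letters in a short window before a given RefSeq start. They say nothing of binding, nor of elements farther away or at other transcript starts.

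Among the other EphA receptors the levels were low. Epha4 encodes a receptor that binds ephrins of both classes. It was at 2.30, 2.25 and 2.22 FPKM in the CON samples and at 1.92, 1.61 and 1.80 FPKM in the RA samples. The RA values were all below the CON values, and the log2 fold change was -0.36 (95% interval -0.58 to -0.13, adjusted p = 0.0581, edgeR), so Epha4 was not a DEG. Epha7, whose receptor is best known from axon guidance, was at 1.48, 1.37 and 1.39 FPKM in CON and at 1.24, 1.08 and 0.873 FPKM in RA. Here too the groups did not overlap, and the log2 fold change of -0.42 (95% interval -0.81 to -0.038) had an adjusted p of 0.173 in edgeR's test. Epha3, a further ephrin-A receptor, was the lowest of the 10, between 0.367 and 0.576 FPKM in CON and between 0.508 and 0.593 FPKM in RA, groups that overlapped. Its log2 fold change was 0.24 (95% interval -0.22 to 0.70), and 80 to 113 reads per sample lay behind it. It was 0.44 without CON sample 1 and 0.11 without CON sample 3.

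The EphB receptors made up most of the receptor RNA. Ephb4, whose receptor binds ephrin-B2, had the highest level of the 10 members in both groups. It was at 26.4, 31.5 and 32.6 FPKM in CON and at 31.2, 33.0 and 34.1 FPKM in RA. The groups overlapped, CON sample 1 was the lowest, and the log2 fold change was 0.11 (95% interval -0.10 to 0.31), or 0.014 without CON sample 1 and 0.18 without CON sample 3. Ephb2, whose receptor binds ephrin-B ligands and is known from tissue boundaries, was at 8.45, 9.54 and 9.91 FPKM in CON and at 10.7, 10.3 and 10.8 FPKM in RA. The RA values were all above the CON values by a narrow gap, with a log2 fold change of 0.18 (95% interval 0.00024 to 0.35, adjusted p = 0.208, edgeR), or 0.11 without CON sample 1. Ephb3, a close relative of Ephb2, was at 5.25, 10.3 and 10.5 FPKM in CON and at 10.1, 11.6 and 11.4 FPKM in RA. The CON mean of Ephb3 was pulled down by CON sample 1 alone, and its log2 fold change of 0.33 (95% interval -0.20 to 0.86) was 0.068 without that sample and 0.50 without CON sample 3.

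Among the ligand genes, Efnb2 encodes ephrin-B2, the ligand of EphB4, and had the highest level. It was at 24.6, 23.0 and 23.7 FPKM in CON and at 22.2, 21.7 and 20.4 FPKM in RA. The RA samples were all slightly lower, with a log2 fold change of -0.16 (95% interval -0.30 to -0.021, adjusted p = 0.156, edgeR). Efna1 was at 20.7, 16.9 and 19.4 FPKM in CON and at 16.4, 16.2 and 13.9 FPKM in RA. The groups of Efna1 were again apart by a narrow gap, with a log2 fold change of -0.31 (95% interval -0.54 to -0.069, adjusted p = 0.113, edgeR). Efnb1 encodes ephrin-B1, whose loss in humans disturbs the growth of the skull sutures. It was between 10.8 and 13.0 FPKM in CON and between 12.7 and 13.6 FPKM in RA, with overlapping groups and a log2 fold change of 0.13 (95% interval -0.059 to 0.31), or 0.057 without CON sample 1.

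Over the 10 members, the FPKM of the groups did not overlap for 6. Epha2 and Ephb2 were higher in every RA sample, and Epha4, Epha7, Efna1 and Efnb2 lower. Of all tested genes, 32.2% had groups that did not overlap, 18.9% higher in every RA sample and 13.3% lower. The same 6 members had an unadjusted p under 0.05, as did 24% of all tested genes, but Epha2 was the only one with an adjusted p below 0.05, which 9.82% of tested genes had, 5.31% higher and 4.5% lower in RA. Of the 9 members that were not DEGs, 5 had a 95% interval that lay entirely between -0.58 and 0.58, namely Ephb2, Ephb4, Efna1, Efnb1 and Efnb2. Such an interval was found for 64.3% of all tested genes. For Epha3, Epha4, Epha7 and Ephb3 the interval reached beyond the threshold, so a change of that size was not excluded by these samples.

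**Figure D2:**
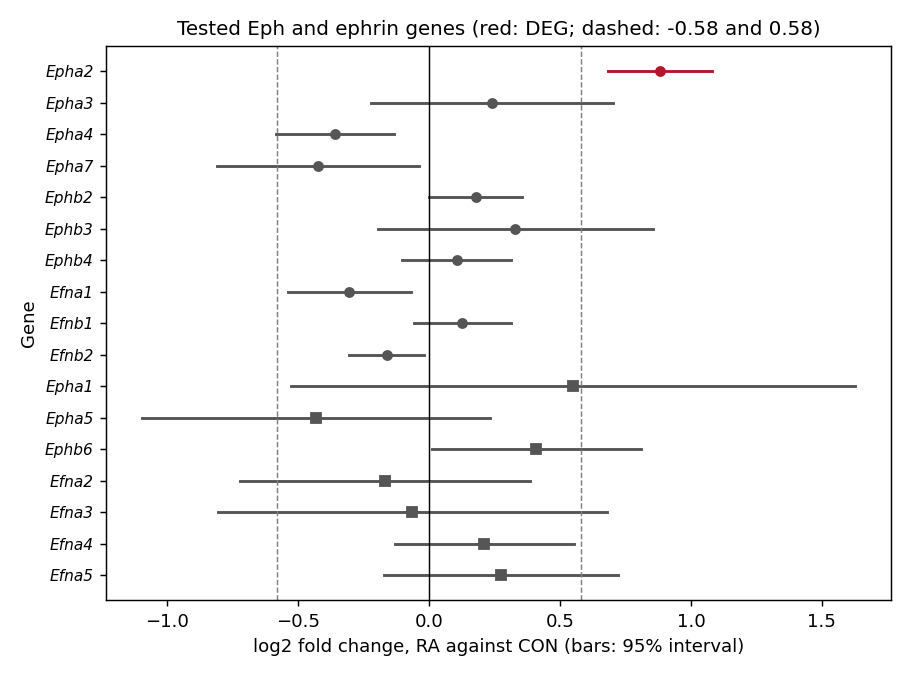
Log2 fold change of RA against CON (horizontal axis) with its 95% interval for the 17 Eph and ephrin genes that passed the filter on low counts, the 10 members as circles and 7 further family genes as squares, with DEGs in red and dashed lines at -0.58 and 0.58. Epha2, at 0.88, is the only DEG, and its interval lies to the right of the threshold.

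**Figure D3:**
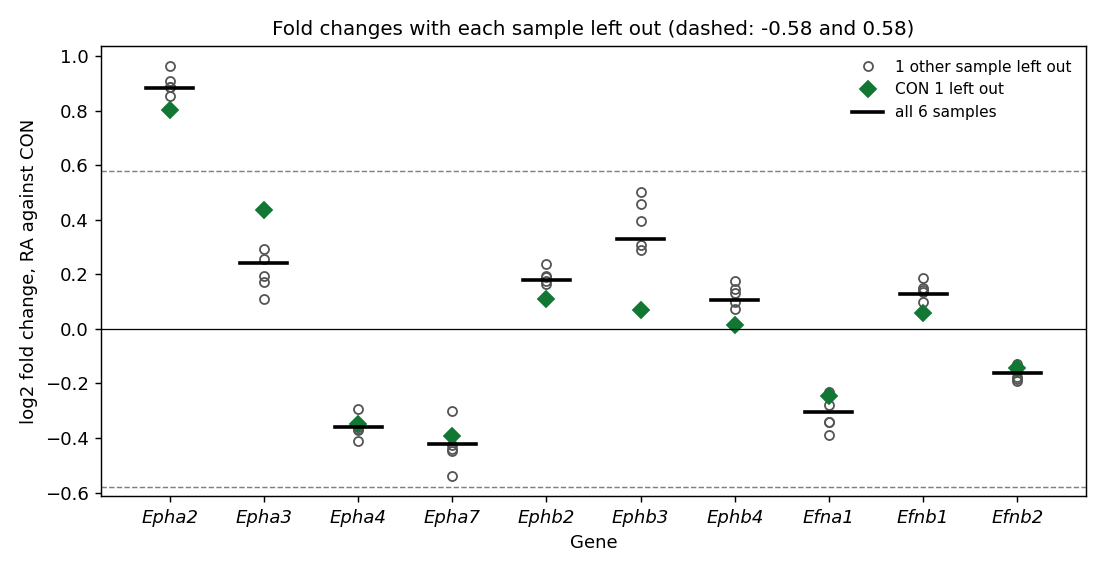
Log2 fold change of RA against CON (vertical axis) of each member with all 6 samples (black bar), without CON sample 1 (green diamond) and without each of the other 5 samples (open circles), with dashed lines at -0.58 and 0.58. Epha2 stays between 0.80 and 0.96, and Ephb3 moves from 0.33 to 0.068 without CON sample 1.

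FPKM values are scaled by the length of the gene model, so an order between genes depends on these models too. Among the members the lengths ran from 1536 bases (Efna1) to 6338 bases (Epha4), as the counts and FPKM imply. An incomplete model would shift a gene in all samples alike, which a lack of overlap between samples cannot show. In CON the order from high to low was Ephb4, Efnb2, Efna1, Epha2, Efnb1, Ephb2, Ephb3, Epha4, Epha7 and Epha3. Each of these genes was above the next in all 3 samples of the group without overlap, except that Ephb2 and Ephb3 overlapped. In RA, Epha2 stood in the place after Ephb4, above Efnb2 and Efna1, again without overlap. Ephb3 stood above Ephb2 in RA but they overlapped in that group too, and the order was otherwise that of CON.

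Summed over every Eph receptor gene in the files, with those outside the 10 members included, receptor RNA came to 69.0 ± 8.74 FPKM in CON and 88.0 ± 2.77 FPKM in RA (SD, n = 3 each). The sum was 59.1 FPKM in CON sample 1, 72.7 and 75.4 FPKM in CON samples 2 and 3, and between 85.2 and 90.7 FPKM in RA. The difference between the means was 18.95 FPKM, of which Epha2 made up 12.86 FPKM or 67.9%. Without CON sample 1, a check chosen after the data were seen, the difference was 14.0 FPKM and the part of Epha2 was 86.3%. The share of Epha2 in receptor RNA was between 20.9% and 22.5% in CON and between 31.2% and 31.8% in RA. The share of Ephb4 was between 43.2% and 44.6% in CON and between 36.6% and 37.6% in RA. These are shares within a sample, so the lower share of Ephb4 goes with the higher one of Epha2.

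The ephrin genes in the files summed to 68.2 ± 2.11 FPKM (SD, n = 3) in CON and to 65.5 ± 1.45 FPKM in RA, and the groups overlapped. The ratio of Epha2 to Efna1, receptor to main ligand, was 0.643, 0.899 and 0.84 in the CON samples. In the RA samples it was 1.65, 1.69 and 2.08, all above the CON values. The ratio of Ephb4 to Efnb2 was 1.07, 1.37 and 1.38 in CON and 1.41, 1.52 and 1.67 in RA, apart by a narrow gap. These ratios combine values already described and were not tested.

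**Figure D4:**
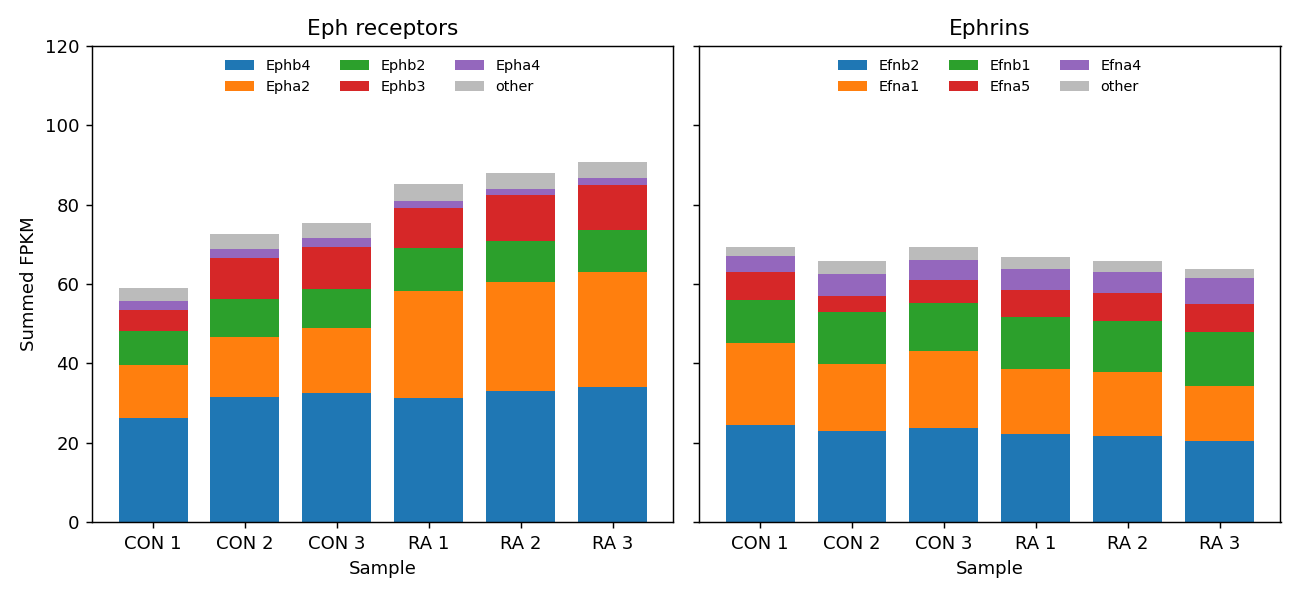
Stacked bars of the summed FPKM of the Eph receptor genes (left) and of the ephrin genes (right) in each of the 6 samples, with 5 genes in colour and the rest in grey. The receptor sum is between 59.1 and 75.4 FPKM in CON and between 85.2 and 90.7 FPKM in RA, with the Epha2 segment taller in RA, while the ephrin sums lie between 63.9 and 69.5 FPKM in all samples.

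The family has 12 further genes, of which 11 were in the files and 7 passed the filter, with 0 DEGs by edgeR, 0 by DESeq2 and 1 with an unadjusted p under 0.05, beside 4.96% of DEGs and 24% with an unadjusted p under 0.05 among all tested genes. That gene was Ephb6, whose receptor lacks kinase activity, at 1.23, 1.86 and 1.90 FPKM in CON and at 2.19, 2.33 and 2.19 FPKM in RA. The log2 fold change of Ephb6 was 0.41, with an adjusted p of 0.196 by edgeR, and it was 0.23 without CON sample 1, the lowest sample. Of the ephrin-A genes, Efna5 had a log2 fold change of 0.28, from 5.69 ± 1.39 to 6.96 ± 0.202 FPKM (SD, n = 3 each). Efna4 had 0.21 (4.87 ± 0.662 and 5.68 ± 0.701 FPKM), and Efna2 had -0.17 (1.76 ± 0.474 and 1.59 ± 0.164 FPKM). Efna3 had -0.065, and neither Efna2 nor Efna3 kept its sign when single samples were left out. Without CON sample 1 the values were 0.44 for Efna5, 0.10 for Efna4, -0.33 for Efna2 and -0.22 for Efna3. Efna5 was at 0.100 without CON sample 2, and Efna4 at 0.10 without RA sample 3. The gene models of Efna5 and Efna3, at 666 and 690 bases as the counts and FPKM imply, were the shortest of the family, which bears on their FPKM. Epha1 and Epha5 had mean levels of at most 0.13 FPKM in either group, with log2 fold changes of 0.55 (95% interval -0.53 to 1.63) and -0.43 (95% interval -1.10 to 0.23). The value of Epha1 was 0.22 without CON sample 1 and 1.03 without CON sample 2. Epha8, Epha10, Ephb1 and Efnb3 did not pass the filter, with at most 6 reads in any sample, and Epha6 was not analysed here.

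Some family genes are neighbours in the genome. In the RefSeq annotation of GRCr8, Efna1, Efna3 and Efna4 follow each other on chromosome 2 with 0 protein-coding genes between. Their log2 fold changes were -0.31, -0.065 and 0.21, and none was a DEG. Epha2 and Ephb2 share chromosome 5, with 72 protein-coding genes between them.

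Ephb4 and Efnb2 are also genes of endothelium, so markers of that and of other cell types were read in the same samples. Of 8 endothelial markers 7 were in the files, and 5 of these had a mean below 0.1 FPKM. Cdh5, the cadherin of endothelial junctions, had at most 1 read in any sample, and Kdr, a VEGF receptor gene, at most 5. The summed level of the list, between 5.75 and 8.27 FPKM in CON and between 6.56 and 7.01 FPKM in RA, was mostly that of Egfl7 and lay below that of Ephb4 alone in every sample. In bulk RNA, fewer cells of a type and less RNA per cell cannot be told apart.

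The lists of macrophage and osteoclast markers, 7 genes, and of fibroblast and perichondrium markers, 7 genes, had sums that overlapped between the groups. The former was between 43.0 and 47.5 FPKM in CON and between 44.5 and 47.5 FPKM in RA. Most of it was Ctsk and Cd14, while Ptprc had at most 5 reads in any sample and Adgre1 at most 1. No gene of that list was a DEG. Cd14 (means of 12.9 FPKM in CON and 15.3 FPKM in RA) and Cd68 (1.05 and 1.28 FPKM) were higher in every RA sample. Ctsk (24.5 and 22.3 FPKM) overlapped between the groups. The fibroblast list, of which 6 genes were in the files, was between 3721 and 4912 FPKM in CON and between 4806 and 5060 FPKM in RA, most of it Col1a1 and Col3a1. Its only DEG was Postn, which fell, with 12.2 ± 1.72 FPKM in CON against 5.04 ± 0.355 FPKM in RA (SD, n = 3 each). Pdgfra of the same list had an adjusted p of 0.00155 by edgeR at a log2 fold change of 0.44, below the threshold. The sum of 7 osteoblast markers was between 2426 and 3427 FPKM in CON and between 3379 and 3600 FPKM in RA, nearly all of it Col1a1, which the fibroblast list holds too. Ibsp, which rose, was the only DEG of the osteoblast list. Alpl of that list was lower in every RA sample, with a log2 fold change of -0.42 and an adjusted p of 0.0219 by edgeR, short of the fold threshold. The sum of 6 mural cell markers found in the files was between 40.9 and 64.0 FPKM in CON and between 37.2 and 40.9 FPKM in RA, with the groups just touching. Most of it was Cspg4, a DEG that fell from a mean of 46.8 to 30.1 FPKM, and no other gene of the list was a DEG. Kcnj8 had at most 6 reads in any sample. The means of Abcc9, Notch3 and Myh11 were at most 1.14 FPKM in either group, and their groups overlapped. Des was higher in every RA sample, at means of 5.09 FPKM in CON and 6.72 FPKM in RA. The sum of 6 Schwann and neural markers, almost all of it S100b, which chondrocytes express as well, was between 278 and 327 FPKM in CON and between 176 and 187 FPKM in RA, and Sox10 had a mean below 0.01 FPKM. S100b was the only DEG of that list and fell. The 5 skeletal muscle markers in the files summed to between 0.181 and 0.385 FPKM in CON and between 0.644 and 0.988 FPKM in RA. Myod1, the only one of these to pass the filter, was a DEG that rose from 0.0932 ± 0.0245 to 0.366 ± 0.0768 FPKM (SD, n = 3 each). Behind it lay only 4 to 7 reads per sample in CON and 17 to 25 in RA. Acta1, Ckm, Myh3 and Tnnt1 had at most 14 reads in any sample. The lower sum of the chondrocyte markers in RA, and the shifts of the neural and muscle lists, ran beside the rise of Epha2, and their part in it was not tested.

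Eph and ephrin signals pass through kinases, adaptors and regulators of the cytoskeleton, and a list of 46 such genes was examined. Of these 45 were in the files and 41 passed the filter. The DEGs were 3, of which 2 rose and 1 fell, beside the 4.96% of DEGs among all tested genes. Their median log2 fold change was -0.011. Pik3r1 encodes a regulatory subunit of PI3K and was at 12.7, 12.3 and 10.8 FPKM in CON and at 23.0, 21.9 and 22.4 FPKM in RA. The groups lay far apart, and Pik3r1 rose by a log2 fold change of 0.90 with a standard error of 0.0696 and an adjusted p of 1.46e-04 by edgeR. It was a DEG with each sample left out in turn.

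Chn2 encodes beta-chimaerin, a protein that inactivates Rac. It was at 1.91, 1.64 and 1.46 FPKM in CON and at 3.30, 2.60 and 3.17 FPKM in RA. Every RA sample was higher, and Chn2 rose by 0.85 on the log2 scale, with a standard error of 0.155 and an adjusted p of 0.0107 by edgeR. Vav3, which encodes an exchange factor that activates Rac, was at 0.869, 0.737 and 0.734 FPKM in CON and at 0.436, 0.42 and 0.34 FPKM in RA. Every RA sample was lower, and Vav3 fell by 0.98 on the log2 scale, with a standard error of 0.177 and an adjusted p of 0.0101 by edgeR. Both calls were sensitive to single samples. Chn2 was not a DEG without CON sample 2 (log2 fold change 0.83, adjusted p = 0.0532, edgeR), RA sample 1 (0.79) or RA sample 3 (0.81), and over all alternatives its adjusted p was between 7.08e-05 and 0.0576. Vav3 was not a DEG without RA sample 3 (-0.88), with an adjusted p of 0.0507 by edgeR. It did not pass a stricter filter on FPKM, and over the 13 alternatives it entered its adjusted p was between 3.35e-04 and 0.0507.

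Without the fold-change threshold, 11 of the 41 genes had an adjusted p below 0.05, 8 higher and 3 lower in RA, against 9.82% of all tested genes. Besides the 3 DEGs these were Cbl, Adam10, Ptpn13, Kalrn, Cfl1 and Abl2 on the higher side and Itsn1 and Grb10 on the lower side, named after their values were seen. Adam10 encodes a protease that cuts ephrins from the cell surface. Its mean went from 9.44 ± 0.462 to 12.5 ± 0.816 FPKM (SD, n = 3 each). The log2 fold change of Adam10 was 0.39, with an adjusted p of 0.00974 by edgeR. Cbl, a ubiquitin ligase that marks active receptor kinases for breakdown, had a log2 fold change of 0.43, with an adjusted p of 0.0201 by edgeR. Cfl1, the actin-severing protein cofilin, went from 890 ± 21.6 to 1148 ± 27.0 FPKM (SD, n = 3 each). Its log2 fold change was 0.35, and its adjusted p was 0.00336 by edgeR. The GTPase genes Rac1 and Cdc42 had log2 fold changes of -0.031 and 0.12 and no adjusted p below 0.05.

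**Figure D5:**
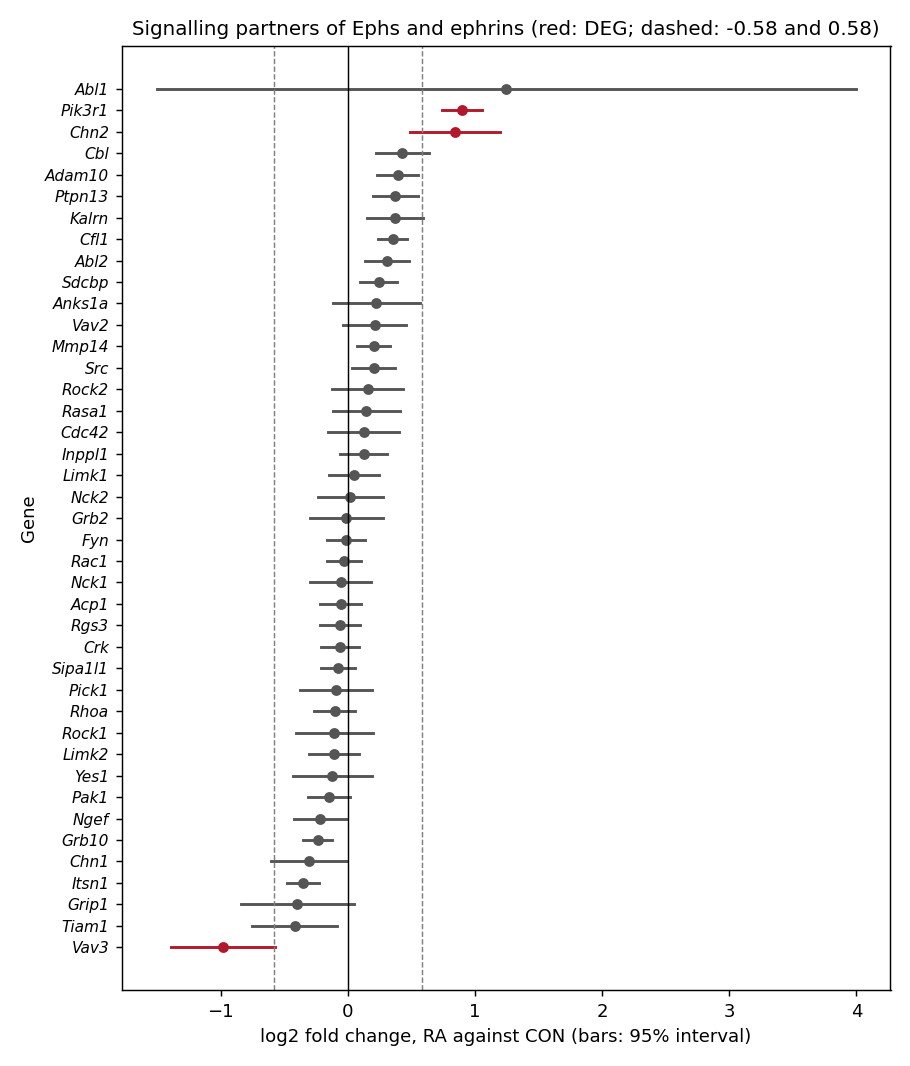
Log2 fold change of RA against CON (horizontal axis) with its 95% interval for the 41 tested signalling partners of Ephs and ephrins, ordered by value, with DEGs in red and dashed lines at -0.58 and 0.58. Pik3r1 at 0.90 and Chn2 at 0.85 are the DEGs on the right and Vav3 at -0.98 the one on the left, and the interval of Abl1 spans the whole range.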

How the data were processed

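RNA-Seq counts and FPKM were deposited by the authors for 6 libraries, 3 CON and 3 RA, grouped and numbered by the sample titles. The deposited counts are whole reads per gene, without normalization. The deposited FPKM equal the count scaled by gene length and library total, within 0.1% for 100% of the 12862 genes with at least 100 reads. The submitters' processing notes name HISAT2, HTSeq 0.13.5 and the rat build Rnor_6.0. The strand setting and the treatment of reads shared by similar genes are not given in the sources used here.

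Counts were tested with edgeR 4.0.16 in R 4.3.3 (glmQLFit, glmQLFTest, TMM, no covariates), after edgeR's filterByExpr with a minimum count of 10, and p-values were adjusted by Benjamini-Hochberg over all 13438 tested genes. Standard errors and 95% intervals were derived from the same test. edgeR's common dispersion gave a biological coefficient of variation of 0.122. The upper limit for a gene without reads, 3 reads, was between 0.0789 and 0.102 CPM and covers counting error only. The scripts were tested on simulated data. The alternatives were DESeq2 1.42.0, limma 3.58.1 on log2 FPKM with pseudocounts of 0.1, 1 and 0.01, RLE factors, other filters and thresholds, a replicate block, and each sample left out in turn. Promoter windows came from RefSeq (GRCr8).

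The members and gene lists were chosen with earlier results of these data known. The named genes were the 10 members, the further family genes, the DEGs among the signalling partners and Cyp26a1, Cyp26b1 and Rarb, the last at a log2 fold change of 1.43. Marker genes and partners outside this rule were named after their values were seen.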

Additional observations from a re-analysis of the deposited data

How the results depend on the processing

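Epha2 was a DEG in each of the 14 other fits, with log2 fold changes between 0.80 and 0.96, and 1 of the 10 members was a DEG under every alternative run. The log2 fold changes of all 10 members kept their sign in every fit they entered (Epha3 did not pass the stricter FPKM filter). Epha4 had an adjusted p below 0.05 in 2 of its 14 other fits, DESeq2 (0.0282) and edgeR without CON sample 1 (0.0393, range over all alternatives 0.0282 to 0.215), at log2 fold changes of -0.36 and -0.35. The main edgeR test gave 667 DEGs over all tested genes. That number was 434 in limma on log2(FPKM + 1), 1319 by adjusted p alone and 1017 by unadjusted p with the fold change. It was between 480 and 755 with each sample left out. The DEGs among the signalling partners were 11 by adjusted p alone and between 1 and 4 with each sample left out, lowest without RA sample 3, where Pik3r1 remained. Vav3 was not a DEG in limma on log2(FPKM + 1), at -0.35. With each sample left out, Efna2 lay between -0.33 and 0.083, above 0 without CON sample 3, and Efna3 between -0.22 and 0.26, above 0 without CON sample 2 and, at 0.024, without RA sample 3. With the replicate number as a block, 684 genes and 1 member were DEGs, with Epha2 at 0.89. The same numbers in CON and RA shared little deviation from their group means (correlations of 0.0928, -0.0123 and 0.0118 over genes), and not every sample correlated best with its own number, so the numbers were not taken as pairs. Depth limits the genes with few reads most, Epha3 (80 to 113 reads per sample) and Epha7 (81 to 158) among the members.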

Other observations

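Abl1, which encodes a tyrosine kinase on the list of signalling partners, took very different values within each group. It had 334 reads in CON sample 1, 354 in RA sample 1 and 474 in RA sample 2, but 20, 21 and 16 reads in CON sample 2, CON sample 3 and RA sample 3. In FPKM these were 3.16, 3.47 and 4.69 against 0.193, 0.161 and 0.15. Both groups held high and low samples, the log2 fold change was 1.25 with a standard error of 1.20, and the 95% interval ran from -1.50 to 3.99. The related gene Abl2 was between 5.85 and 6.30 FPKM in CON and between 7.19 and 8.12 FPKM in RA, with no such split. Abl1 was singled out after its values were seen, and the cause of the split was not tested.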
